A study of Mus musculus with 6 samples.

Results

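The imprinted growth genes described here are H19, Igf2, Meg3, Rian, Dlk1, Peg3, Peg10, Mest, Grb10 and Nnat. They were chosen by name, with earlier results of these data known. Each symbol matched 1 gene, giving 10 of the 54446 genes listed in the count matrices. UMIs, which each tag 1 captured RNA molecule, were added up over each library's called cells, and the share of cells with a UMI was taken beside them. All 10 genes had at least 1 UMI in a called cell, and 6 passed the filter on low counts and were tested.

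The libraries were droplet-based 5' single-cell RNA-seq of GL261, an established mouse glioma line, and of GL261-GSCs, glioblastoma stem cell cultures derived from it. GL261 was kept in a differentiation medium with fetal calf serum and is represented by 2 libraries, GL261-GSCs in a defined stem cell medium by 4 libraries. No gene was altered in either group, per the labels, and all libraries come from 1 line, labelled as brain and as glioblastoma cells. Whether the replicates came from separate cultures was not given in the sources used here, so the p-values measure only the spread between these libraries. Medium, growth form and derivation differ together between the groups and cannot be told apart.

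Imprinted genes are expressed mainly or only from the copy inherited from 1 parent, because DNA methylation set in the egg or sperm marks the copies by parent. At many of these genes, such as Mest, Peg3 and H19, the methylated copy is the silent one. Many of them act on growth: paternally expressed genes such as Igf2, Mest, Peg3, Peg10 and Dlk1 tend to favour it, while maternally expressed H19, Meg3 and Grb10 tend to hold it back. In the developing brain several are active in progenitors, and loss or gain of imprinted expression is known from gliomas and other tumours. Allelic origin was not analysed here, so every value is the sum over both copies.

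Called cells numbered 4264 to 7275 per library. All barcodes of a library together held 80899005 to 121309232 UMIs. Of these, called cells held 41.2% in GL261-GSCs replicate 4 and 56.7% to 65.7% in the other 5 libraries. The median cell held 6670 UMIs in GL261-GSCs replicate 4 and 10638 to 15478 in the other 5 libraries. Pairs of libraries shared 32 to 59 cell barcodes, where chance gives 26.1 to 57.9. The largest excess was 41 against 29.4, between GL261 replicate 1 and GL261-GSCs replicate 4. The 5 glioma stem cell markers summed to 1400 to 1464 CPM in GL261 and 1048 to 1328 CPM in GL261-GSCs, but did not move together. Nes (1183 and 1265 against 312 to 563 CPM) and Cd44 were lower in GL261-GSCs, Olig2 (0.918 and 0.0166 against 401 to 787 CPM) and Sox2 (66.8 and 67.5 against 81.7 to 141 CPM) were higher, and Prom1 stayed under 0.1 CPM. Markers of other cells were present and also moved both ways. Fibroblast markers summed to 258 to 292 CPM in GL261 and 38.05 to 228 CPM in GL261-GSCs, with Col1a1 at 247 and 282 against 10.8 to 26.3 CPM and Col3a1 at 6.01 and 5.003 against 22.3 to 201 CPM. Neuron markers summed to 111 to 112 and 129 to 245 CPM, with Tubb3 at 85.03 and 92.3 against 4.15 to 45.8 CPM and Syt1 at 0.0148 and 0.0331 against 1.15 to 78.2 CPM. Oligodendrocyte markers summed to 172 to 268 and 164 to 237 CPM, with Mbp at 142 and 237 against 34.5 to 70.6 CPM and Mog at 0.978 and 0.563 against 19.6 to 70.1 CPM. Astrocyte markers summed to 7.85 to 8.52 and 61.2 to 85.8 CPM, where Slc1a3 alone was higher in GL261-GSCs to that extent (0.163 and 0 against 61.2 to 85.7 CPM), Gfap and Aldh1l1 were lower, and Aqp4 had 0 UMIs. The myeloid markers summed to at most 25.8 CPM and the endothelial markers to at most 1.64 CPM in any library, with the endothelial genes Kdr and Cldn5 under 4 UMIs in all. The nuclear RNA Malat1 stood at 7445 CPM in GL261-GSCs replicate 4, the highest of the 6 libraries, and at 2855 CPM in the lowest. The part of these differences in the results below was not tested.

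Mature miRNAs were not measured, but 2 members with changed RNA carry miRNA hairpins, whose sequences are shown because they mark what else lies within each gene. They are from RefSeq (GRCm38.p6), 5′ to 3′, with the seed (bases 2 to 8) in capitals. The miR-675 hairpin lies in an exon of H19, and both arms read on the minus strand of chr7:142577078-142577133. The miR-335 hairpin lies outside the exons of Mest, on the plus strand of chr6:30741314-30741375. No seed is shared among these 4.
mmu-miR-675-5p: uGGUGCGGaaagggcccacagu
mmu-miR-675-3p: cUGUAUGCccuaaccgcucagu
mmu-miR-335-5p: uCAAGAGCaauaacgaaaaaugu
mmu-miR-335-3p: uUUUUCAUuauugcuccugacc

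RefSeq gave 15 promoter windows, each of 300 bases, for 8 of the members. They were searched on both strands for TGCCGC, the letters bound by ZFP57, a zinc finger protein that protects imprinted methylation. The motif was in 6 of the 15 windows, which overlap in part, and in 11.6% of all 32851 promoter windows. The window below, 1 of 3 for Mest, is shown because Mest was the member with the most UMIs and a changed level. It is chr6:30737800-30738099 on the plus strand, with 2 matches, both on the reverse strand and in capitals (GCGGCA). Its ratio of observed to expected CpG was 0.590, between the median of all windows, 0.384, and their upper quartile, 0.750. A match of these letters is a description only, and binding was not measured.
Mest promoter: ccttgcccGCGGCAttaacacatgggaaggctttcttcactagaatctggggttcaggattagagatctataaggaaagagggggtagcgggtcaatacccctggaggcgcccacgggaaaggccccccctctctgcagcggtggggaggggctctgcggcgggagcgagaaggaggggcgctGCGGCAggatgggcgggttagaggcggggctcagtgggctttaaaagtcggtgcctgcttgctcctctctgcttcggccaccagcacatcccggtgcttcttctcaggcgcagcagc

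Of the 6 members tested, 1 was higher in GL261-GSCs (H19), 1 was lower (Mest) and 4 were not called (Igf2, Peg3, Peg10 and Nnat), taking as called an edgeR quasi-likelihood p below 0.05 after Benjamini-Hochberg adjustment over all genes. Of the 18439 genes in the test, 29.9% were called, with 15.8% up and 14.1% down, so that 2 of 6 is close to the share of all genes. The CPM of the 2 groups did not overlap for 4 of the 6 tested members, beside 10451 of the 18439 genes tested. A lack of overlap was thus the usual case among all genes. The median log2 fold change of the tested members, GL261-GSCs over GL261, was -0.61, where that of all genes was 0.04. Rian, Meg3, Dlk1 and Grb10 were too low to test.

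H19, a maternally expressed long noncoding RNA that restrains growth, was nearly absent from GL261 and present in every GL261-GSCs library. H19 (ENSMUSG00000000031.16, chr7:142575529-142578143, GRCm38) had 5 and 2 UMIs in GL261 replicates 1 and 2, and 555, 282, 745 and 579 UMIs in GL261-GSCs replicates 1 to 4. Scaled to library size, these were 0.0741 and 0.0331 CPM in GL261, and 8.42, 3.89, 9.32 and 15.9 CPM in GL261-GSCs. The groups did not overlap: the lowest GL261-GSCs library, replicate 2, lay far above both GL261 libraries. The means were 0.0536 ± 0.0289 CPM (SD, n = 2) and 9.38 ± 4.95 CPM (SD, n = 4). The log2 fold change of H19 was 7.38 (SE 0.83; edgeR adjusted p = 0.00120). The call held in all 15 alternative settings, with log2 fold changes of 6.79 to 8.05. With 7 UMIs in GL261, H19 passed the filter on low counts only through GL261-GSCs.

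Mest, a paternally expressed gene for an enzyme of the alpha/beta hydrolase family that is induced in growing tissue, was lower in every GL261-GSCs library. Mest (ENSMUSG00000051855.15, chr6:30723547-30748465) stood at 741 and 908 CPM in GL261, and at 274, 264, 153 and 117 CPM in GL261-GSCs replicates 1 to 4. No GL261-GSCs library reached the level of either GL261 library, and replicates 3 and 4 were lower than replicates 1 and 2. The means were 825 ± 118 CPM (SD, n = 2) in GL261 and 202 ± 78.9 CPM (SD, n = 4) in GL261-GSCs. The log2 fold change of Mest was -2.03 (SE 0.35; edgeR adjusted p = 0.00631). The call was lost without GL261 replicate 2, where the log2 fold change was -1.88 at an adjusted p of 0.0590 (edgeR), and it held in the other 14 settings.

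**Figure D1:**
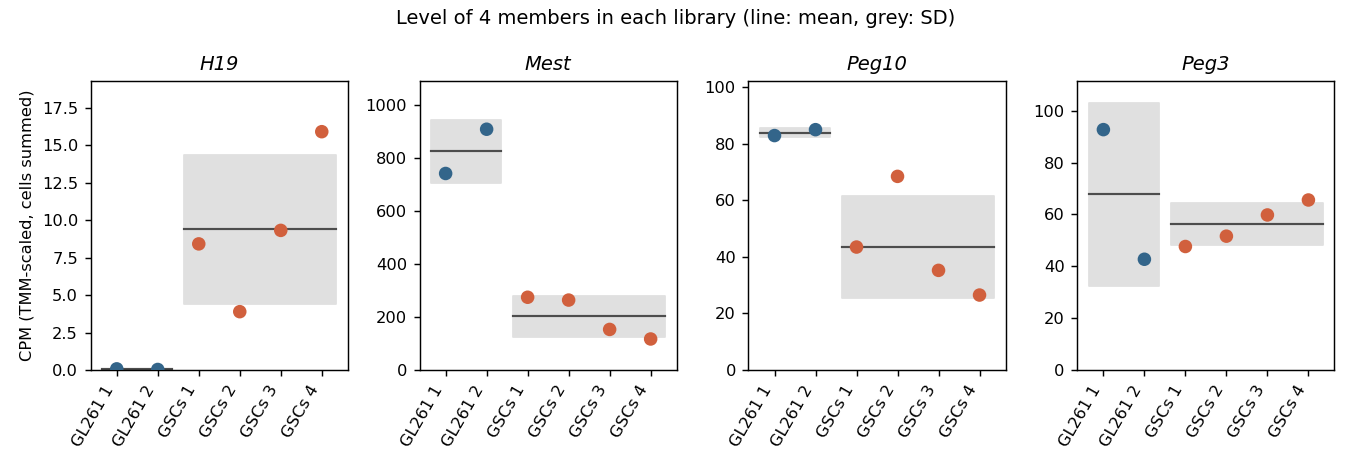
Level of H19, Mest, Peg10 and Peg3 in each library, in CPM with TMM-scaled library sizes; blue points are the 2 GL261 libraries, orange points the 4 GL261-GSCs libraries, lines the group means and grey bands 1 SD. H19 is near 0 in GL261 and at 3.89 to 15.9 CPM in GL261-GSCs, Mest and Peg10 do not overlap between the groups, and the 2 GL261 libraries of Peg3 lie on either side of the 4 GL261-GSCs libraries.

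Peg10, a paternally expressed gene derived from a retrotransposon and needed in the placenta, was lower in all GL261-GSCs libraries but did not pass the test. It stood at 82.8 and 84.9 CPM in GL261, and at 43.4, 68.4, 35.2 and 26.5 CPM in GL261-GSCs replicates 1 to 4. The groups did not overlap, as was the case for most genes tested, with GL261-GSCs replicate 2 nearest to GL261. The log2 fold change of Peg10 was -0.95 (SE 0.34, adjusted p = 0.0758, edgeR). It was called without GL261-GSCs replicate 2, at -1.24 with an adjusted p of 0.0126 (edgeR), with no filter on low counts (0.0417, edgeR) and by the DESeq2 Wald test (0.0300). Peg10 was also called with a block on the replicate number, where its log2 fold change was smaller, at -0.62. Sgce, which starts 0.099 kb from Peg10 on the other strand and is also paternally expressed, had a log2 fold change of -0.03 (SE 0.21).

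Peg3, a paternally expressed zinc finger gene linked to cell death and maternal behaviour, was not called. Its levels were 92.7 and 42.7 CPM in GL261, and 47.6, 51.6, 59.8 and 65.6 CPM in GL261-GSCs. The GL261 libraries were the highest and the lowest of the 6, so the groups overlapped. The log2 fold change of Peg3 was -0.27 (SE 0.30, adjusted p = 0.527, edgeR), and it was 0.39 without GL261 replicate 1. Usp29, a ubiquitin protease gene that starts 0.147 kb away on the other strand, showed the same split of the GL261 libraries, at 2.78 and 1.04 CPM, and stood at 1.43 to 2.17 CPM in GL261-GSCs.

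Igf2, the paternally expressed growth factor next to H19, was seen at few UMIs in both groups. It had 27 and 13 UMIs in GL261, and 3, 7, 10 and 0 UMIs in GL261-GSCs. With these counts Igf2 passed the filter on low counts only through GL261, the group where it was higher. All GL261-GSCs libraries lay below both GL261 libraries, but the log2 fold change of -2.04 (SE 0.73) did not pass the test (adjusted p = 0.0764, edgeR). With all barcodes of at least 1000 UMIs it was called, at -2.07 with an adjusted p of 0.0306 (edgeR). These counts are uncertain, because the gene Gm49394 shares exons with Igf2 on the same strand and held 2429 UMIs. Gm49394 stood at 10.2 and 11.3 CPM in GL261, and at 7.98, 4.03, 2.05 and 2.01 CPM in GL261-GSCs, and its log2 fold change was -1.42 (SE 0.56; edgeR adjusted p = 0.0971). It was called by the DESeq2 Wald test (0.0351), with limma-voom (0.0428) and without GL261-GSCs replicate 1 (0.00803, edgeR). How reads shared by the 2 genes were counted was not given in the sources used here. Igf2os, on the other strand of Igf2 with overlapping exons, held 39 UMIs.

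Nnat, a paternally expressed gene for a small membrane protein of neurons and endocrine cells, had 3 to 11 UMIs per library and its log2 fold change was -0.09 (SE 0.65; edgeR adjusted p = 0.932). Its nearest tested gene, Blcap, in whose intron Nnat lies, stood at 21.3 and 20.3 CPM in GL261 replicates 1 and 2 and at 17.6 to 22.2 CPM in GL261-GSCs.

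The members of the Dlk1 and Meg3 cluster on chromosome 12 were close to the limit of detection in both groups. Rian, a maternally expressed noncoding RNA that hosts small nucleolar RNAs, had 2 and 1 UMIs in GL261, and 8, 3, 3 and 5 UMIs in GL261-GSCs. Its ratio between the groups was 3.18, with a 95% counting interval of 0.936 to 16.8 that holds no change. Meg3, a maternally expressed noncoding RNA with tumour suppressor activity, had 3 UMIs in GL261 replicate 1 and 0 in the other 5 libraries. Dlk1, a transmembrane protein that keeps progenitors undifferentiated, had 1 UMI in GL261 replicate 1 and 1 in GL261-GSCs replicate 1. Rtl1, the paternally expressed retrotransposon-derived gene between Meg3 and Rian, was the only gene tested within 500 kb of either of these 2. It had 3 and 2 UMIs in GL261 and 64, 8, 15 and 0 UMIs in GL261-GSCs, and its log2 fold change was 3.002 (SE 1.58; edgeR adjusted p = 0.194). Grb10, an adaptor that dampens insulin receptor signalling, had 0 UMIs in GL261 and 1 UMI in each of GL261-GSCs replicates 1 and 2. No difference was detectable at this depth for Meg3, Dlk1 and Grb10.

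Shares of cells with a UMI were compared after thinning each called cell to 2000 UMIs, which removes the difference in depth between cells and left out no cell. H19 was seen in 0.0416% of cells in GL261 replicate 1 (95% exact binomial interval 0.00504 to 0.150) and in 0 of 5002 cells in GL261 replicate 2, where the exact interval reaches 0.0737% and a count of 3 cells, the limit used for a count of 0, is 0.0600%. It was seen in 1.10%, 0.733%, 1.33% and 2.17% of the cells of GL261-GSCs replicates 1 to 4. Free RNA, taken from the small barcodes (100 to 1000 UMIs), would alone account for 0.0551%, 0.0265%, 0.0734% and 0.292% there. The H19 shares were thus above the estimated free RNA in each of the 4 libraries. Without thinning they were 3.38%, 2.16%, 4.34% and 5.12%. The mean was 1.34% ± 0.610 (SD, n = 4) against 0.0208% ± 0.0294 (SD, n = 2), with an exact permutation p of 0.133 (2-sided), the smallest that 2 against 4 libraries can give, and 0.444 adjusted over the 10 members.

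Mest was seen in 53.2% and 61.4% of GL261 cells, and in 39.7%, 38.7%, 24.7% and 19.5% of GL261-GSCs cells at 2000 UMIs. Free RNA would give 6.06% and 6.07% in GL261 and 2.82% to 3.16% in GL261-GSCs. The mean share was 57.3% ± 5.81 (SD, n = 2) in GL261 and 30.7% ± 10.1 (SD, n = 4) in GL261-GSCs, with no overlap and the same exact permutation p of 0.133. The groups drew closer without thinning, at 88.2% and 91.5% against 89.9%, 83.7%, 64.9% and 45.5%, where GL261-GSCs replicate 1 reached the GL261 range. Peg10 was seen in 13.0% ± 0.846 (SD, n = 2) of GL261 cells and 8.30% ± 3.14 (SD, n = 4) of GL261-GSCs cells. GL261-GSCs replicate 2, at 12.6%, lay between the 2 GL261 libraries, and the exact permutation p was 0.267. Peg3 was seen in 14.1% and 6.92% of GL261 cells and in 8.77% to 14.2% of GL261-GSCs cells. The other 6 members were each seen in at most 0.100% of the cells of any library. Intervals and limits cover counting error only.

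**Figure D2:**
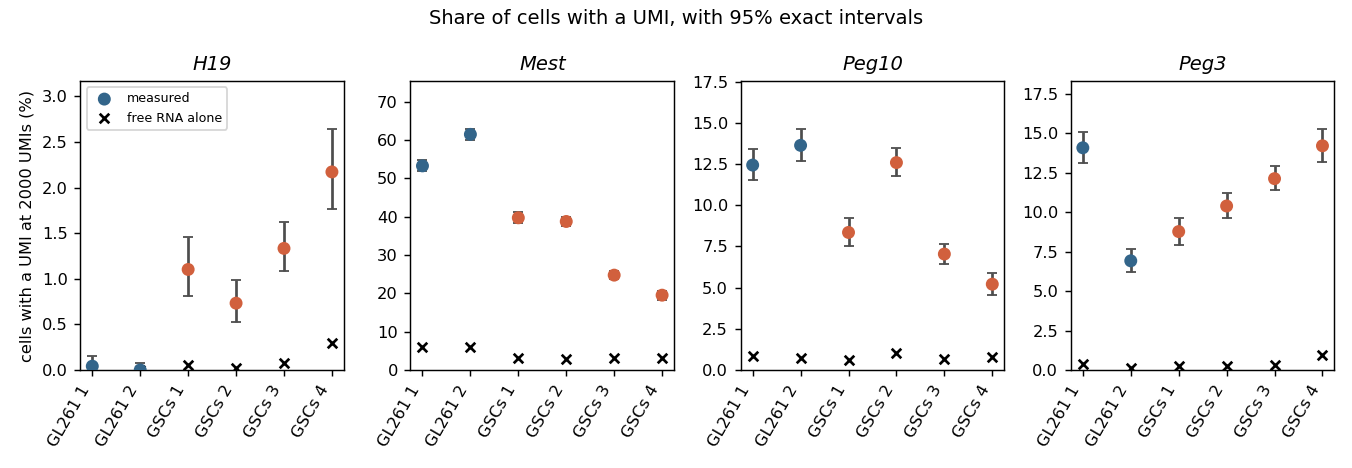
Percentage of cells holding a UMI of H19, Mest, Peg10 and Peg3 after thinning to 2000 UMIs per cell, by library, with 95% exact binomial intervals as bars; blue is GL261, orange GL261-GSCs, and crosses give the share that free RNA alone would produce. All measured shares of Mest, Peg10 and Peg3 lie above the crosses, and the H19 shares of 0.733% to 2.17% in GL261-GSCs do as well.

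H19 was unevenly spread over the GL261-GSCs cells. The 1% of cells with most H19 held 76.0%, 75.5%, 62.6% and 59.8% of its UMIs in replicates 1 to 4, and the richest cell held 63, 25, 45 and 40 UMIs. If each cell had H19 in proportion to its depth, 12.1%, 4.67%, 9.62% and 11.8% of cells would hold a UMI, in place of the 3.38%, 2.16%, 4.34% and 5.12% seen. H19 UMIs were therefore in fewer cells than an even spread gives, in each of the 4 libraries. Cells with at least 5 H19 UMIs numbered 27, 13, 25 and 29, and held 66.8%, 41.8%, 42.7% and 50.1% of all H19 UMIs. Outside these cells H19 stood at 2.83, 2.35, 5.39 and 8.75 CPM, still above the GL261 libraries.

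The cells with at least 5 H19 UMIs were chosen on H19 after its values were seen, so what they contain is a description. They were somewhat larger, with median UMIs of 18385, 13317, 12584 and 10897, where the other cells had 15349, 11889, 10634 and 6651. Doublets were not removed by a caller, and the part of cell size in these values was not tested. Apart from H19 itself, among the genes with the highest ratio to other cells in all 4 libraries were Tnnt3 and Tnni2, which encode troponins T and I of fast skeletal muscle. Both lie on chromosome 7 next to H19, their starts 79.3 kb and 136 kb from its own. Dll3, a Notch ligand, and the interferon-induced genes Isg15 and Rsad2 were also among them. Dll3 stood at 128, 188, 183 and 102 CPM in the H19-rich cells and at 16.9, 10.9, 10.5 and 14.2 CPM in the other cells. The imprinted transcription factor gene Plagl1, which is known to act on other imprinted genes, stood at 983, 540, 485 and 601 CPM in the H19-rich cells and at 242, 173, 235 and 298 CPM in the others.

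Tnnt3 was also seen in a larger share of cells with H19 when any H19 UMI was taken in place of 5. It was seen in 26.4%, 21.3%, 21.2% and 9.96% of the 144, 127, 316 and 231 cells with an H19 UMI in GL261-GSCs replicates 1 to 4. In the cells without one it was seen in 0.898%, 1.25%, 1.78% and 0.818%. The difference was in the same direction in each library. In number, 38, 27, 67 and 23 of the 75, 99, 191 and 58 cells with a Tnnt3 UMI also had an H19 UMI, so most Tnnt3 cells lacked one in replicates 2, 3 and 4. Tnni2 was seen in 14.6%, 10.2%, 11.1% and 7.36% of cells with an H19 UMI, against 0.340%, 0.226%, 0.848% and 0.537% of the others. Cells with H19 had median depths of 15746, 12737, 12428 and 9076 UMIs, and the others 15345, 11877, 10538 and 6493. In CPM, which takes depth into account, Tnnt3 stood at 66.5, 52.1, 45.3 and 22.8 in cells with H19 and at 0.998, 2.11, 2.68 and 1.48 in the others. These are values within libraries, with no test, since cells are not replicates.

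**Figure D3:**
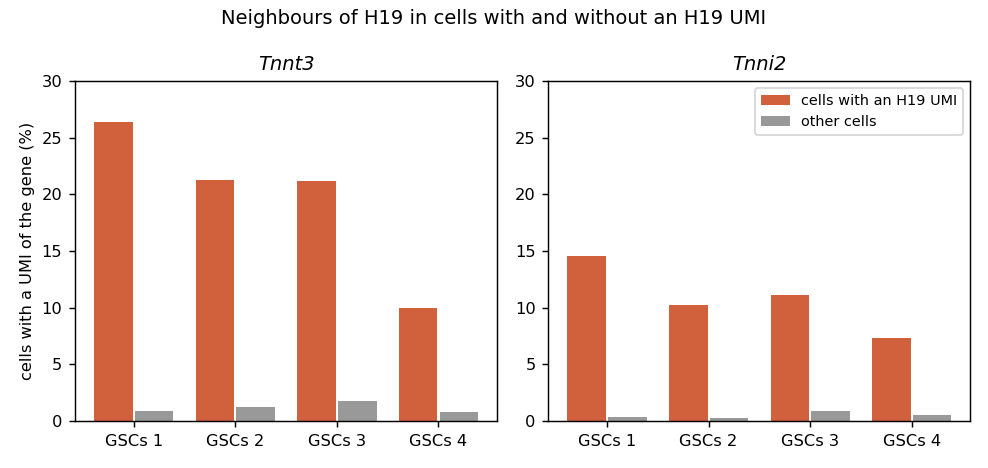
Share of GL261-GSCs cells with a UMI of Tnnt3 or Tnni2, among cells with at least 1 H19 UMI (orange bars) and among the other cells (grey bars), in each of the 4 libraries, at full depth. In every library the orange bar is the taller, at 9.96% to 26.4% for Tnnt3 and 7.36% to 14.6% for Tnni2, where the grey bars stay at or under 1.78%.

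For Mest, whether the groups overlapped depended on the measure of spread. The 1% of cells with most Mest held 11.0% and 8.98% of its UMIs in GL261 and 5.85%, 6.94%, 7.66% and 10.7% in GL261-GSCs, so the groups overlapped. Its squared coefficient of variation beyond counting error and depth was 1.90 and 1.41 in the GL261 libraries. In GL261-GSCs replicates 1 to 4 it was 0.478, 0.663, 0.660 and 0.993, with no overlap. The richest GL261 cells held 226 and 205 Mest UMIs, where the richest GL261-GSCs cells held 65, 59, 41 and 20. For Peg10 the same measure was 3.03 and 1.75 in GL261 and 0.899 to 1.72 in GL261-GSCs, and 1 GL261 replicate 1 cell held 113 Peg10 UMIs. For Peg3 it was 1.39 and 2.62 in GL261 and 0.590 to 1.19 in GL261-GSCs. In this measure the groups thus did not overlap for Peg10 and Peg3 either. It was computed for the members only, so whether it is particular to Mest or general to these libraries was not tested.

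Among cells with at least 10000 UMIs, the 10% richest in Mest were set beside the lower 50%, again a choice made on Mest itself after its values were seen. In GL261, Peg10 stood at 155 and 139 CPM in the rich cells and at 57.0 and 54.4 CPM in the lower ones, at like median depths of 17123 and 14885 against 17090 and 15003 UMIs. In GL261-GSCs the 2 values of Peg10 were 48.2 and 38.02 CPM in replicate 1, 116 and 54.3 in replicate 2, 36.8 and 29.3 in replicate 3, and 27.9 and 20.2 in replicate 4. Peg10 was thus higher in the Mest-rich cells of all 6 libraries. Peg3 differed in GL261, at 107 and 80.7 CPM in replicate 1 and 59.9 and 31.2 CPM in replicate 2, while in GL261-GSCs it stood at 46.8, 51.1, 52.6 and 56.3 CPM in the rich cells and at 43.8, 50.4, 52.3 and 55.0 CPM in the lower ones. Other genes high in the Mest-rich GL261 cells were Fgfr3, a fibroblast growth factor receptor, at 70.7 and 75.5 CPM against 21.7 and 28.9, and Pou3f2, a neural transcription factor, at 22.2 and 33.4 CPM against 6.89 and 12.4. Timp1, an inhibitor of matrix proteases, was lower there, at 393 and 452 CPM against 850 and 825. In GL261-GSCs, Gpnmb, a membrane glycoprotein, stood lower in the Mest-rich cells, at 229, 322, 269 and 174 CPM against 558, 776, 683 and 954.

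After thinning, cells with UMIs of both Peg10 and Mest were more than the product of their shares gives in each library, at 1.15 and 1.12 times that number in GL261, and at 1.10, 1.15, 1.07 and 1.27 times in the GL261-GSCs libraries. For Peg3 and Mest the ratio was 1.02 and 1.06 in GL261 and 1.02 to 1.18 in GL261-GSCs. Peg10 and Sgce, which start next to each other, gave 0.780 and 1.18 in GL261. In GL261-GSCs they gave 0.779, 1.22, 1.11 and 0.911, again on both sides of 1.

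Cycling cells, taken as those with UMIs of at least 2 of 12 cycling markers after thinning, made up 53.6% to 72.2% of each library. Mest in cycling cells was 0.887 and 0.843 times its CPM in other cells in GL261, and 0.974, 0.849, 0.927 and 1.09 times in GL261-GSCs. Peg3 was at 0.932 and 0.910 times in GL261 and at 1.05, 1.06, 1.36 and 1.36 times in GL261-GSCs, so its ratio lay under 1 in both GL261 libraries and above 1 in all 4 GL261-GSCs libraries. H19 in GL261-GSCs was at 0.496, 0.951, 0.806 and 0.761 times. The H19 ratios rest on few cells, since 1% of cells held most of its UMIs. Of the H19-rich cells 55.6%, 84.6%, 72% and 44.8% were cycling, and of the others 69.3%, 70.5%, 64.9% and 53.7%, which is higher in the H19-rich cells of replicates 2 and 3 and lower in those of replicates 1 and 4. These ratios have no test.

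The genes next to the members were described from the same fit. Of 16 genes tested within 500 kb of H19, 3 were higher and 1 was lower in GL261-GSCs. These 4 of 16 are no larger a share than the 29.9% called among all genes or the 31.6% on chromosome 7. Their median log2 fold change was 0.06, where that of the 1423 genes tested on chromosome 7 was -0.24. Mrpl23, a mitochondrial ribosomal protein gene and the nearest neighbour, did not differ beyond the spread between replicates, at 22.9 and 23.4 CPM in GL261 and 18.96 to 25.5 CPM in GL261-GSCs (log2 fold change -0.00, SE 0.16). Tnnt3, the next, had 1 UMI in each GL261 library and stood at 3.34, 3.20, 4.80 and 2.61 CPM in GL261-GSCs. Its ratio was 234 (95% counting interval 64.5 to 1932; edgeR adjusted p = 0.000180). Lsp1, a leukocyte actin-binding protein gene, rose by 1.54 (SE 0.43, adjusted p = 0.0374, edgeR), from 37 UMIs in GL261. The Lsp1 call was lost without GL261 replicate 2, at an adjusted p of 0.234, without GL261-GSCs replicate 1, at 0.0532, and without GL261-GSCs replicate 3, at 0.0788 (edgeR). Tnni2 falls outside the rule for named genes and was chosen after its values were seen. It had 2 UMIs in GL261 and a ratio of 90.8 (25.0 to 753). Tnnt3 and Tnni2, both among the 4 called genes, passed the filter on low counts only through GL261-GSCs. They could thus be called in 1 direction only, which limits the comparison with the share of all genes. Igf2, Igf2os and Gm49394 were not called.

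Of 16 genes tested within 500 kb of Mest, 5 were higher and 2 were lower, beside 15.8% higher and 14.1% lower among all genes and 30.3% called in either direction on chromosome 6. Among those called, Cpa4 passed the filter on low counts only through GL261. 1700012C14Rik, with 0 and 4 UMIs in GL261, passed it only through GL261-GSCs. Each could be called in 1 direction only, so the shares are set side by side as a description. The median over the 16 genes was -0.14, where the 977 genes tested on chromosome 6 had 0.06. Copg2, a coatomer subunit gene whose exons overlap those of Mest on the other strand, fell by 0.64 (SE 0.15, adjusted p = 0.0201, edgeR), from 71.4 and 85.9 CPM to 57.4, 52.3, 48.1 and 43.4 CPM. The call was lost without GL261 replicate 1 (0.0725), GL261 replicate 2 (0.204) or GL261-GSCs replicate 3 (0.0540). In the Mest-rich GL261 cells Copg2 stood at 197 and 212 CPM against 41.2 and 45.5 in the lower ones. Whether the counting used strand is not given, so it is not known here whether reads of Mest and Copg2 were kept apart where they overlap. The starts of the 2 genes lie 173 kb apart. Cpa4, a carboxypeptidase gene, fell by 4.71 (SE 0.61, adjusted p = 0.00210, edgeR), from 59 UMIs in GL261 to 4 in GL261-GSCs. The fitted size of this fall rests on those 4 UMIs. Cep41, Ssmem1 and Gm44296, also near Mest, were not called, with log2 fold changes of -0.41, -0.18 and 0.67.

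Around Peg3, 8 of 20 tested genes were higher and 0 lower, while Peg3 itself was not called. Of these 8, 7 had 0 to 2 UMIs in GL261 and passed the filter on low counts only through GL261-GSCs, so they could be called in 1 direction only, and the count is not set against that of all genes. It was 5 without either GL261 library. These genes also fall outside the rule and were chosen after their values were seen. The gene with the most UMIs in a run of olfactory receptor genes was Olfr1349, whose start lies 207 kb from that of Peg3. It had 0 UMIs in GL261 and stood at 3.20, 4.89, 1.95 and 2.75 CPM in GL261-GSCs, at least 137-fold higher when GL261 as a whole is set to 3 UMIs. Gm7587, a pseudogene, was at least 38.8-fold higher, Olfr1350 at least 12.9-fold and Olfr5 at least 7.03-fold, each with 0 UMIs in GL261. Olfr1347 and Olfr1348, with 1 UMI each in GL261, had ratios of 51.7 (9.07 to 2062) and 30.1 (5.20 to 1209). The called gene with the most UMIs was Zfp773, a zinc finger gene, at 2.81 and 2.63 CPM in GL261 and 9.40, 16.4, 63.1 and 130 CPM in GL261-GSCs replicates 1 to 4 (log2 fold change 4.33, SE 1.22; edgeR adjusted p = 0.0368). Its call was lost without GL261 replicate 1 (0.190), GL261 replicate 2 (0.205) or GL261-GSCs replicate 3 (0.0725), and with limma-voom (0.103). With the replicate block the log2 fold change of Zfp773 was 2.19. Smim17, with 2 UMIs in GL261 and 34 in GL261-GSCs, had a ratio of 8.53 (2.19 to 73.3), and its call was lost in 4 of the 11 alternative settings that tested it: without GL261 replicate 1 (0.194), with the replicate block (0.0699), by the DESeq2 Wald test (0.0638) and with all barcodes of at least 1000 UMIs (0.0574). Of the olfactory receptor genes, the call of Olfr1348 was lost without GL261 replicate 1 (0.179) or 2 (0.107) and that of Olfr1347 without GL261 replicate 2 (0.0754). Olfactory receptor genes are close copies of each other, so counts may be split between them.

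**Figure D4:**
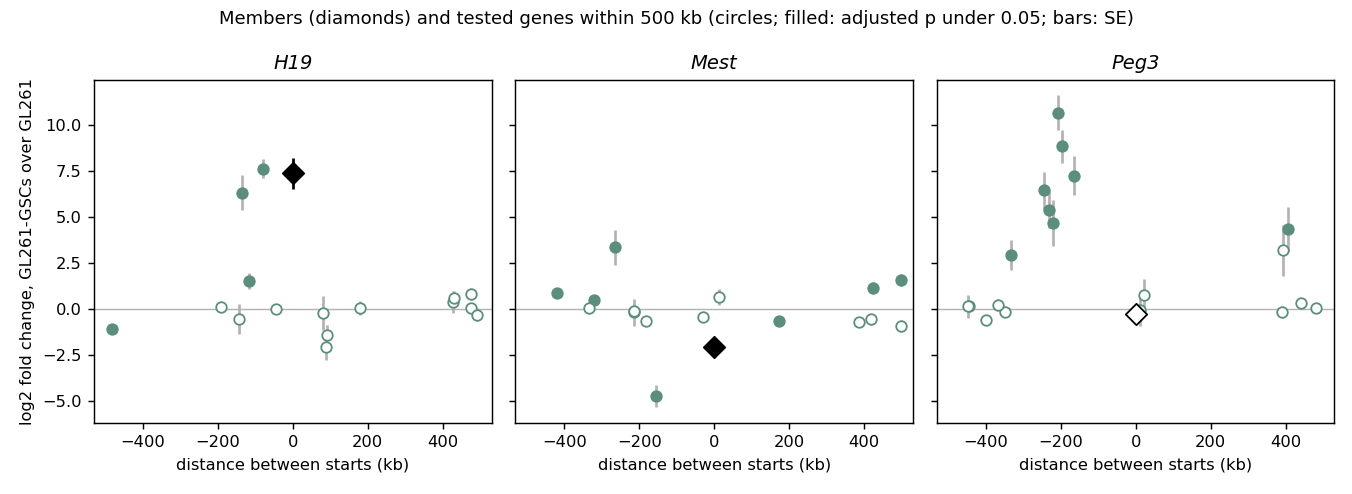
Log2 fold change, GL261-GSCs over GL261, of H19, Mest and Peg3 (diamonds) and of each tested gene within 500 kb (circles) against the distance between gene starts in kb; filled symbols passed an adjusted p under 0.05 and bars are SE. Fitted values of genes with 0 to 3 UMIs in a group have no fixed size. Near H19 and near Peg3, called genes and genes that were not called lie side by side.

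Of 37 other imprinted genes, 23 were tested, and 5 were higher and 5 lower in GL261-GSCs, 43.5% of those tested beside 29.9% of all genes, with a median log2 fold change of -0.03. This list and the growth factor and methylation lists below were drawn up with earlier results known, so their shares called are descriptions. By the parental origin listed for each gene, 1 of 9 tested maternally expressed genes was higher and 3 were lower. Of 14 tested genes listed as paternally expressed, 4 were higher and 2 lower. Whether each gene is expressed from 1 copy in these cells was not analysed. The listed imprinted genes therefore moved in both directions, and most of those tested were not called.

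Plagl1 (chr10:13060504-13131694) had the smallest p of them. It stood at 13.2 and 9.87 CPM in GL261 and at 245, 169, 235 and 276 CPM in GL261-GSCs, and rose by 4.33 in log2 units (SE 0.28; edgeR adjusted p = 0.000167). Inpp5f, a phosphoinositide phosphatase gene of which 1 form is imprinted, rose by 1.32 (SE 0.16), to 80.6 ± 11.2 CPM (SD, n = 4) from 32.2 ± 1.11 CPM (SD, n = 2). Airn, a paternally expressed noncoding RNA that silences Igf2r in cis, rose by 1.82 (SE 0.45, adjusted p = 0.0234, edgeR), a call lost without either GL261 library or GL261-GSCs replicate 3, at adjusted p of 0.129, 0.167 and 0.0554. The other 2 higher genes fall outside the rule and were chosen after their values were seen: Igf2r, the receptor that clears IGF2, at 1.51 (adjusted p = 0.0488, edgeR), and Mkrn3, a ubiquitin ligase gene, at 1.61 (adjusted p = 0.0485). Over the 15 settings, Igf2r was not called in 7 and Mkrn3 in 6, among them those without GL261 replicate 1 (0.167 and 0.178) or 2 (0.281 and 0.270). Airn and Igf2r overlap on opposite strands, and it is not known here whether their reads were kept apart.

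Of the genes that fell, 3 lie near each other on chromosome 7, between 143473736 and 143756985. Phlda2, a maternally expressed gene that restrains placental growth, fell by 2.36 (SE 0.51, adjusted p = 0.0149, edgeR), from 66.5 and 57.5 CPM to 15.5, 3.62, 16.9 and 12.3 CPM. Slc22a18, a transporter gene, fell by 3.46 (SE 0.65, adjusted p = 0.00901, edgeR) and Osbpl5, a lipid transfer protein gene, by 3.40 (SE 0.40, adjusted p = 0.00137, edgeR). Other listed imprinted genes beside them were not called: Cdkn1c, which ends at 143461050, at -1.07 (SE 0.86), Kcnq1ot1 at -0.12, Tssc4 at -0.29 and Cd81 at 0.84. The calls of Phlda2 (adjusted p 0.0898 and 0.0752) and Slc22a18 (0.0684 and 0.0513) were lost without GL261 replicate 1 or 2. Peg13, a noncoding RNA within Trappc9, fell by 3.90 (SE 0.36, adjusted p = 0.000565, edgeR), from 5.61 and 7.92 CPM to 0.276 to 0.652 CPM. Mcts2, a retrogene copy of Mcts1 whose reads may be shared with it, fell by 0.68 (SE 0.17, adjusted p = 0.0246, edgeR). The Mcts2 call was lost without GL261 replicate 1 (0.128), GL261 replicate 2 (0.196) or GL261-GSCs replicate 3 (0.0575).

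**Figure D5:**
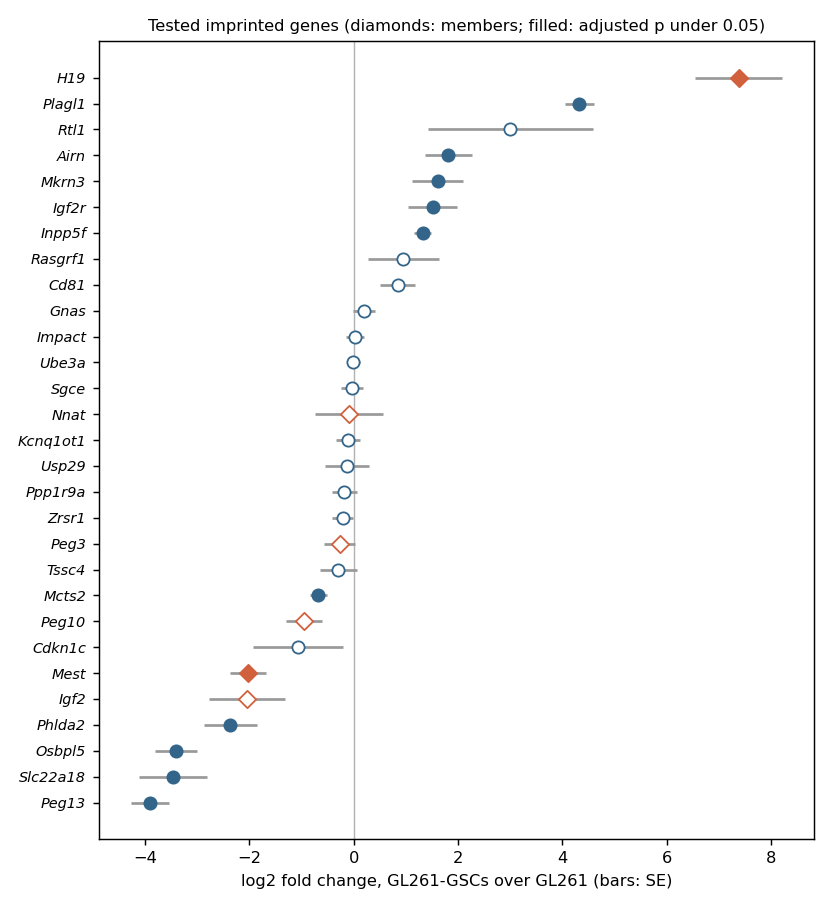
Log2 fold change, GL261-GSCs over GL261, of the 6 tested members (orange diamonds) and the 23 tested other imprinted genes (blue circles), in order of size, with SE as bars; filled symbols passed an adjusted p under 0.05. H19 at 7.38 and Peg13 at -3.90 are the ends of the range, and the open symbols include Igf2 at -2.04 and Rtl1 at 3.002.

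Genes of the insulin-like growth factor pathway, through which Igf2 acts, also moved in both directions: of 12 listed, 9 were tested, 2 were higher and 3 lower (55.6% called, beside 29.9% of all genes), and their median log2 fold change was 0.29, beside 0.04 over all genes. Insr, the insulin receptor, rose by 1.85 (SE 0.49, adjusted p = 0.0301, edgeR), from 23.6 and 20.99 CPM to 43.0, 54.0, 86.1 and 139 CPM. Its call was lost without GL261 replicate 1 (0.153), GL261 replicate 2 (0.186) or GL261-GSCs replicate 3 (0.0656). The receptor docking proteins Irs1 and Irs2 fell by 4.10 (SE 0.30) and 1.55 (SE 0.29), with Irs1 at 71.8 and 74.6 CPM in GL261 and 3.06 to 6.36 CPM in GL261-GSCs. Irs2 was not called without GL261 replicate 1 (adjusted p = 0.0717, edgeR) or 2 (0.0679). Of the proteins that bind Igf2 and H19 RNA, Igf2bp1 fell from 273 and 400 UMIs to 2 UMIs in GL261-GSCs, 670-fold lower (95% counting interval 185 to 5547, adjusted p = 0.000150, edgeR). Igf2bp1 is among the 3 lower genes but passed the filter on low counts only through GL261. It could thus be called in 1 direction only. Igf2bp3 rose by 0.75 (SE 0.17, adjusted p = 0.0163, edgeR), a call lost without GL261 replicate 1 (0.134) or 2 (0.135). The DESeq2 Wald test called 8 of these 9 genes, and 2 were called without either GL261 library.

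Of 13 listed genes that set, keep or remove DNA methylation or act at imprints, the TET genes among them, 12 were tested, with 4 higher and 1 lower (41.7% called, beside 29.9% of all genes) and a median of 0.68, beside 0.04 over all genes. Tet1, an enzyme that oxidises methylated cytosine, rose by 2.86 (SE 0.38, adjusted p = 0.00225, edgeR), from 3.98 and 3.16 CPM to 17.0, 19.7, 33.2 and 33.98 CPM. The DNA methyltransferase gene Dnmt3a rose by 1.55 (SE 0.21, adjusted p = 0.00243, edgeR). Its mean was 23.6 ± 0.555 CPM (SD, n = 2) in GL261 and 69.1 ± 13.7 CPM (SD, n = 4) in GL261-GSCs. Tet3 rose by 0.72 (SE 0.14), a call lost without GL261 replicate 1 (adjusted p = 0.109, edgeR) or 2 (0.102). Setdb1, a histone methyltransferase gene, fell by 0.51 (SE 0.12), and its call was lost in 5 of 15 settings. Zfp57 was at the threshold, at 0.84 (SE 0.26; edgeR adjusted p = 0.0497), and its call was lost in 7 of 15 settings. Dnmt1, Uhrf1 and Trim28, which keep methylation through cell division, were not called, with log2 fold changes of 0.10, 0.64 and -0.35.

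The genes most like the 3 members with the highest CPM were found by Pearson's r of log2(CPM + 1) over the 6 libraries, among 5423 genes. For Mest they were Zfp365 and Ivns1abp, both at 0.999, and Dhrs1 at 0.998. For Peg10 they were Ltbr at 0.995, Cisd2 at 0.991 and Arl6ip5 at 0.990, and for Peg3 Ifi35 at 0.831, Itm2c at 0.825 and Sin3b at 0.766. The points share 2 groups of libraries, so a gene that differs between the groups gains a high r from that alone.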

How the data were processed

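The data are 6 single-cell gene count matrices, 2 of GL261 and 4 of GL261-GSCs. The deposited counts are UMIs per gene and barcode, not normalized, made with Cell Ranger 4 per the file headers on mm10 per the submitters' processing notes. The annotation release, the use of strand and the handling of overlapping genes were not given in the sources used here. Gene positions and types came from GENCODE M21 by gene ID.

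Cells were barcodes with at least 10% of the 99th percentile of UMIs among the 3000 largest barcodes, at least 500 genes and under 10% mitochondrial UMIs. Doublets were not called. UMIs were summed per library and tested with edgeR 4.0.16 (TMM scaling, quasi-likelihood, low count filter), GL261-GSCs against GL261, over 18439 genes. CPM are TMM-scaled unless they describe cells within a library. Counts were simulated with 200 of 18439 genes changed by a log2 of 2. Of these 200, 141 were recovered, and 11 of 152 calls were false. Smaller changes, or changes in a larger share of genes, were not simulated. Shares were thinned to 2000 UMIs per cell and tested by exact permutation. Alternatives were DESeq2 1.42.0, limma-voom 3.58.1, other scalings, filters and cell limits, a replicate block and leaving out each library.

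Members and gene lists were chosen with earlier results of these data known. The text names all members, at most 8 called genes per list by smallest p, up to 6 nearest tested neighbours within 500 kb of each called member, and the 3 genes most like each of the 3 members with the highest CPM. Scripts used Python 3.11.15 and R 4.3.3. 1 gene that the rule names is not reported here.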

Additional observations from a re-analysis of the deposited data

How the results depend on the processing

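Of 34 named genes, 24 were called, and 11 of these stayed called in all 15 alternative settings; 13 were lost in at least 1, and none changed direction. Of the 10 not called, 3 were called in some setting. Leaving out a GL261 library leaves 1 in that group, whose spread is then taken from the other group, and calls over all genes went from 5514 to 1972 without replicate 1 and 1817 without replicate 2. Scaling by library size moved the median over all genes from 0.04 to 0.18 (log2) and the split from 2920 higher and 2594 lower to 3491 and 2034. Over the libraries left out in turn, 1 to 3 members, 4 to 11 other imprinted genes, 2 to 7 growth factor pathway genes and 2 to 7 DNA methylation and imprint genes were called. The DESeq2 Wald test called 8 growth factor pathway genes. Log2 fold changes that turned sign were all of genes not called. Over the same left-out libraries they ran from -0.73 to 0.39 for Peg3, -0.61 to 0.67 for Nnat, -0.0476 to 0.104 for Mrpl23, -0.51 to 0.16 for Igf2os and -0.74 to 0.24 for Ssmem1. Library size scaling gave 0.0555 for Nnat and 0.15 for Mrpl23, and a minimum of 5000 UMIs gave 0.0441 for Mrpl23. Differences in shares, in percentage points, ran from -2.71 to 4.46 for Peg3 and -0.00385 to 0.0169 for Rian. A minimum of 5000 UMIs gave -0.382 for Peg3, 7.79e-06 for Igf2 and 0.0389 for Nnat, thinning to 4000 UMIs gave 0.00803 for Nnat, and all barcodes of at least 2000 UMIs gave 0.00570 for Nnat. The cause of these changes was not tested.

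Libraries with the same replicate number showed little shared deviation from their group means, with correlations of -0.007 and 0.071 for numbers 1 and 2. Both values rest on the same difference between the 2 GL261 libraries, so they cannot exclude pairing. Blocking on that number called 6512 genes, Peg10 among them (-0.62, edgeR adjusted p = 0.0472), and under the block the log2 fold change was 0.55 for Igf2os and 0.49 for Ssmem1.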
